A study of Mus musculus with 2 samples.

Results

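Sites ranked higher in NPC are CTCF peaks called in both neural precursor cells (NPC) and mouse embryonic stem cells (ESC) that stood far higher in the score order of the NPC list than in that of the ESC list. They were chosen from the autosomal peaks that overlapped 1-to-1 between the lists by at least 1 bp. The score percentile of each peak is its rank by score within its own full list, from 0 for the lowest score to 100 for the highest. A pair was taken when its NPC percentile exceeded its ESC percentile by at least 40 points. This gave 1642 of 38591 pairs, or 4.25%, a share that the limit itself sets. In the other direction 2472 pairs, or 6.41%, were at least 40 points higher in ESC, and 34477 pairs lay between. Which direction held more pairs depended on the overlap required: with 50% reciprocal overlap 1615 pairs were ranked higher in NPC and 1404 in ESC. That overlap removes pairs by width, since a pair in which either peak is under 50% as wide as the other cannot meet it. The median ratio of NPC to ESC width was 0.519 at the sites ranked higher in ESC and 1.11 at those ranked higher in NPC.

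The NPC were derived from E14 cells and grown in basic FGF (20 ng/ml) and EGF (20 ng/ml) with N2 supplement. The ESC were E14Tg2A cells of the IB10 line, kept in serum with leukemia inhibitory factor at 1000 U/ml on medium conditioned by BRL cells. CTCF was immunoprecipitated with the same antibody from both, and SOLiD libraries were sequenced. There was 1 library per cell type, so no test between cell types was made, no p-value is given, and a change of binding and the scatter of scores between libraries cannot be told apart. Intervals are 95% intervals over peaks. They take each peak as a separate draw and hold only the error of counting.

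CTCF is a zinc-finger DNA-binding protein that holds cohesin at many chromatin loop anchors and separates neighbouring domains. Most of its sites are bound in many cell types, and binding at the rest varies with DNA methylation, chromatin state and co-bound factors. A peak in a list therefore says that a site passed the calling limit, while its place in the score order gives its standing among the other sites of that library. The sites described here were present in both cell types and differed in that order.

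The sites ranged from pairs just past the limit to pairs near opposite ends of the lists. The median NPC percentile was 72.8 (interquartile range 61.4 to 84.5), against a median ESC percentile of 19.8 (9.09 to 32.1). The authors' scores had a median of 798 in the NPC list and 186 in the ESC list, and levels on these scales cannot be set against each other, since the files do not define the score. By difference, 946 sites were 40 to 50 points apart, 448 were 50 to 60, 164 were 60 to 70, 64 were 70 to 80, 19 were 80 to 90, and 1 was over 90. In NPC 93.3% of the sites scored above the median of the list and 14.9% lay in its highest 10%. In ESC 3.17% scored above the list median and 27.5% lay in the lowest 10%, close to the weakest peaks called. All these values follow from the choice of sites and describe them only. The rule cannot be met above an ESC percentile of 60; of the 18137 pairs at or under that level, 9.05% were taken.

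**Figure D1:**
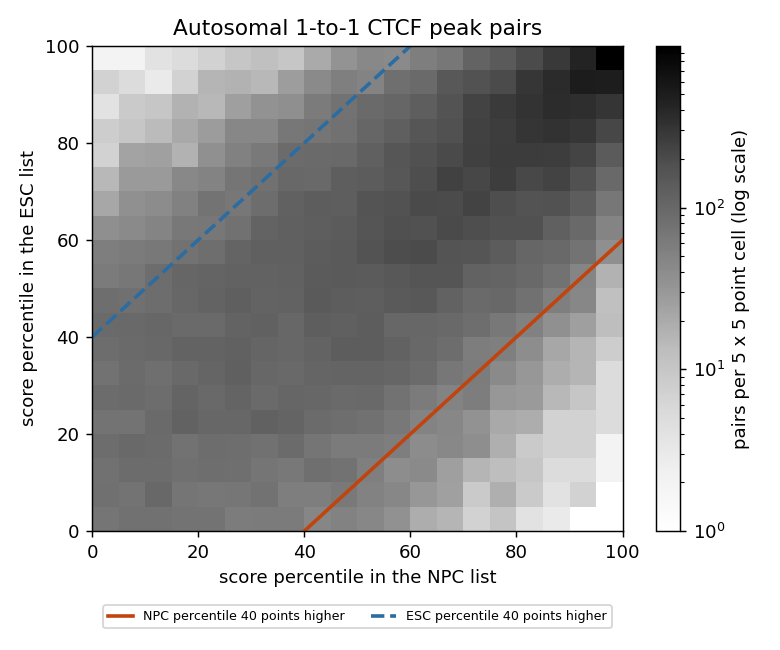
Number of autosomal 1-to-1 pairs by score percentile in the NPC list (horizontal) and in the ESC list (vertical), in cells of 5 by 5 points on a log grey scale. The 1642 sites ranked higher in NPC lie on or below the solid line at the lower right, and the 2472 ranked higher in ESC lie on or above the dashed line at the upper left.

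The limit cut through a continuous distribution. The 5 sites just inside it differed by 40.0028 to 40.0102 points. They included a peak on chromosome 1 at 157890092 to 157890646, at percentile 84.3 in NPC and 44.3 in ESC, and a peak on chromosome 15 at 79210804 to 79211335, at 89.2 in NPC and 49.2 in ESC. The 5 pairs just outside differed by 39.98 to 39.9996 points, such as a peak on chromosome 17 at 28018424 to 28018914, at 45.96 in NPC and 5.96 in ESC. The 5 sites just inside were at NPC percentiles from 73.2 to 92.7.

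The 10 sites with the largest difference, from 83.3 to 91.0 points, were spread over 6 chromosomes, and 3 of them lay on chromosome 15. All positions are mm9 coordinates. The first was on chromosome 15 at 27955630 to 27956267, where the NPC peak scored 1652 (percentile 94.0, rank 3103) and the ESC peak at 27955750 to 27956197 scored 109 (percentile 2.96, rank 52547). Its NPC peak was 638 bp wide and its ESC peak 448 bp, and another site ranked higher in NPC lay 12930 bp away. The second, on chromosome 17 at 31865608 to 31866165, scored 1380 in NPC (percentile 89.7) and 101.03 in ESC (percentile 0.274), near the lowest score in the ESC list. It stood 208468 bp from the nearest other such site.

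The third was on chromosome 3 at 121339137 to 121339724, at percentile 93.3 in NPC and 5.36 in ESC. An NPC-only peak, meaning an NPC peak with no ESC overlap, lay 6929 bp from it. The fourth, on chromosome 8 at 122940405 to 122941376, was the widest of the 10, with 972 bp in NPC and 442 bp in ESC. Within 100 kb of it lay 20 other NPC peaks, 7 of them NPC-only, and 13 other ESC peaks, none of them ESC-only. Its percentiles were 89.8 in NPC and 2.01 in ESC. Such dense surroundings were not general: the site on chromosome 11 at 56865061 to 56865861 (percentile 92.6 in NPC, 6.36 in ESC) had 1 other NPC peak and no other ESC peak within 100 kb.

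Of the remaining 5, the sites on chromosome 9 were at 46410053 to 46410728 (percentile 93.0 in NPC, 5.72 in ESC) and at 64244746 to 64245437 (96.8 in NPC, 13.5 in ESC). The other chromosome 15 sites were at 79791891 to 79792603 (92.3 in NPC, 5.17 in ESC) and 103014188 to 103014855 (93.4 in NPC, 6.59 in ESC). The last was on chromosome 17 at 10686027 to 10686586, with 92.6 in NPC and 7.69 in ESC. In all 10 the NPC peak was wider than its ESC partner, by 1.34 to 2.72 times.

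The sites with the highest NPC scores were not those with the largest difference. Peaks on chromosome 18 at 82631294 to 82632077 and chromosome 15 at 78869089 to 78869918 scored 3100, a value at which 208 NPC peaks piled up. Their ESC percentiles were 29.8 and 45.7. A peak on chromosome 15 at 98634396 to 98635071 followed, with a score of 2965 in NPC and an ESC percentile of 55.1. Sites are named by their mm9 position alone, since sequence and genes of that build were not used here, and no motif or gene is assigned to them.

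Peak width did not enter the rule, but it followed score, which did. NPC peaks at these sites had a median of 513 bp (interquartile range 451 to 584) and ESC peaks 464 bp (391 to 532), although peaks of the whole NPC list were narrower, at 433 bp, than those of the ESC list, at 573 bp. The NPC peak was the wider one at 69.4% (67.1 to 71.7) of the sites ranked higher in NPC, at 0 of 2472 sites ranked higher in ESC, and at 10.6% (10.3 to 10.96) of the other pairs. The ratio of NPC to ESC width had medians of 1.11 (1.10 to 1.13), 0.519 (0.513 to 0.523) and 0.766 (0.764 to 0.769) in these groups. The ESC peak lay wholly inside the NPC peak at 42.9% (40.5 to 45.4) of the sites ranked higher in NPC and at 3.97% (3.77 to 4.18) of the other pairs. Peak centres were a median of 31.5 bp apart at the sites ranked higher in NPC and 32 bp at the other pairs, so the peaks of a pair were as well aligned.

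The median width ratio was above 1 at the sites of 19 of 19 autosomes, from 1.03 on chromosome 5 to 1.15 on chromosome 15, and below 1 at the other pairs of all 19. Without chromosome 15 it was 1.10 (1.09 to 1.12), and on chromosome 15 alone 1.15 (1.09 to 1.20). The other pairs of chromosome 15 had a ratio of 0.833, against 0.763 for the other pairs elsewhere. Those of chromosome 15 were also shifted in rank toward NPC, with a median difference of 6.71 points, against -1.06 elsewhere. Width followed score, so these ratios do not compare widths at equal rank.

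Width followed score within each list, and score is what chose the sites. Among pairs at the 60th to 80th NPC percentile, NPC peaks had a median width of 502 bp (492 to 512) at the sites ranked higher in NPC and 506 bp (505 to 509) at the other pairs. From the 80th percentile up the values were 582 bp (575 to 590) and 585 bp (583 to 587). ESC peaks below the 20th ESC percentile were 409 bp wide (400 to 416) at the sites ranked higher in NPC and 407 bp (403 to 410) at the other pairs. Between the 20th and 40th they were 493 bp (484 to 502) and 499 bp (496 to 502). At a given score the peaks of these sites therefore had about the width of other peaks of their list, and the width ratio was not independent of the scores.

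**Figure D2:**
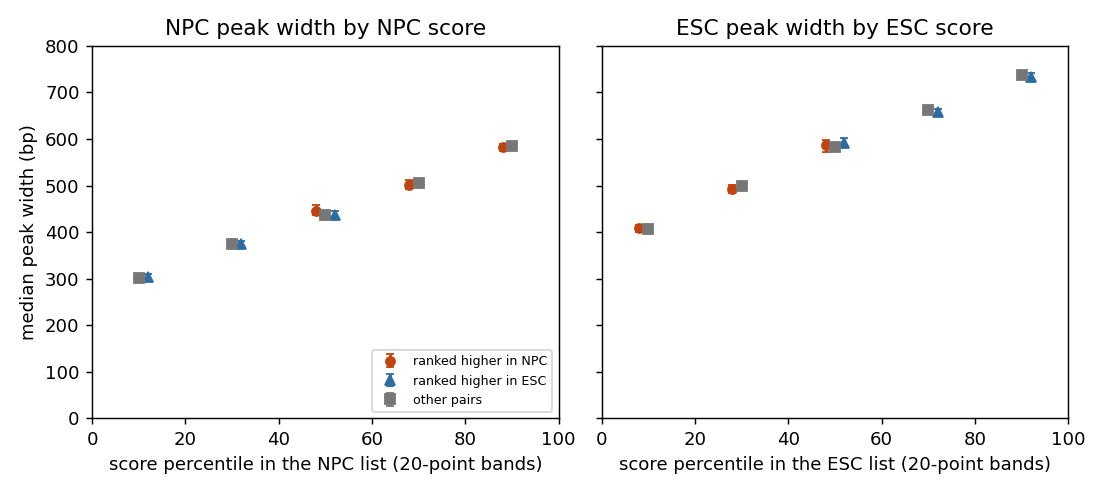
Median peak width in bp with 95% intervals, by 20-point band of score percentile, for NPC peaks (left) and ESC peaks (right) at sites ranked higher in NPC, sites ranked higher in ESC and other pairs. In each band the groups lie close together, for example 502 bp and 506 bp at the 60th to 80th NPC percentile.

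Sites ranked higher in NPC were mostly single. Of the 1642, 1445 (88.0%) had no such site as the next 1-to-1 pair on either side, 176 stood in 88 runs of 2, and 21 stood in 7 runs of 3. For the sites ranked higher in ESC 80.9% were single, and runs reached 5. That class was larger, with 6.41% of all pairs against 4.25%. Both shares are low enough to leave most sites single wherever they lie, so the single shares are not a property of the sites. Of the pairs adjacent to a site ranked higher in NPC, 6.21% (5.41 to 7.09) were ranked higher in NPC themselves, against 4.25% (4.10 to 4.40) of the pairs adjacent to other pairs. Without chromosome 15 the shares were 5.38% (4.59 to 6.25) and 4.01% (3.86 to 4.16). Each adjacent link between 2 such sites is counted from both of its ends, so these intervals are too narrow. Pairs adjacent to sites ranked higher in ESC were themselves ranked higher in ESC in 10.3% (9.48 to 11.2) of cases, against 6.21% (6.03 to 6.39) next to other pairs.

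Outside chromosome 15 the share varied with the distance to the adjacent pair, with links again counted from both ends. At up to 5 kb 34 of 481 adjacent pairs (7.07%, 4.94 to 9.74) were ranked higher in NPC, against 4.03% (3.66 to 4.42) next to other pairs. At 5 to 20 kb it was 3.93% (2.70 to 5.50) against 4.04% (3.76 to 4.33), at 20 to 50 kb 5.67% (4.08 to 7.65) against 3.78% (3.50 to 4.09), at 50 to 100 kb 4.62% (2.92 to 6.91) against 4.32% (3.93 to 4.74), and at over 100 kb 6.49% (4.42 to 9.14) against 3.98% (3.61 to 4.38). The share was highest within 5 kb but did not decline steadily with distance. By chromosome, the share next to the sites exceeded that next to other pairs on 15 of 19 autosomes, the exceptions being 8, 9, 11 and 13.

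Neighbours that did not themselves pass the limit were shifted little. Among adjacent pairs within 40 points of equality, the median difference in percentile (NPC minus ESC) was 2.17 points (1.49 to 3.01) next to sites ranked higher in NPC, and it was -3.66 (-4.30 to -2.86) next to sites ranked higher in ESC and -0.63 (-0.79 to -0.50) next to other pairs. Without chromosome 15 the values were 1.51 (0.83 to 2.19), -3.73 (-4.42 to -2.98) and -1.01 (-1.18 to -0.85). The sites themselves had a median difference of 48.3 points. The limit puts the sites at 40 points or more and these neighbours under 40, so the sizes of their differences cannot be compared. Relative to pairs next to other pairs, those next to sites ranked higher in NPC were shifted toward NPC.

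The nearest other site ranked higher in NPC was a median of 278 kb away for these sites (interquartile range 83.3 to 723) and 381 kb away for other pairs. Within 50 kb another such site lay beside 17.7% (15.8 to 19.6) of the sites and 11.5% (11.2 to 11.9) of the other pairs. Without chromosome 15 these shares were 15.8% (13.95 to 17.8) and 10.8% (10.5 to 11.2). Peak density differed little between them: the median number of other NPC peaks within 100 kb was 7 in both groups. Another NPC peak lay within 2 kb of 17.7% (15.8 to 19.6) of the sites and 14.2% (13.8 to 14.5) of the other pairs, and another ESC peak within 2 kb of 14.7% (13.1 to 16.5) and 14.98% (14.6 to 15.4).

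Windows of 1 Mb held at most 10 such sites, and 1386 of 2356 windows with pairs held none. The window with most was chromosome 15 from 98 to 99 Mb, with 10 of 61 pairs (16.4%, 8.15 to 28.1), 1 pair ranked higher in ESC, and 19 NPC-only among 80 NPC peaks. The 10 sites formed 3 close doublets with centres 1046 bp, 1553 bp and 1079 bp apart, at 98568170 to 98569713, 98618161 to 98620337 and 98634396 to 98636155, and 4 single sites. In the second doublet the peaks scored 2215 (percentile 98.1) and 1308 (88.3) in NPC, and 318 (35.4) and 190 (20.3) in ESC.

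Chromosome 15 also held the next windows, from 84 to 85 Mb with 8 of 41 pairs (19.5%, 8.82 to 34.9) and from 76 to 77 Mb with 8 of 61 (13.1%, 5.84 to 24.2). From 84 to 85 Mb 23 of 64 NPC peaks were NPC-only and 6 of 47 ESC peaks ESC-only. The largest difference there was 59.5 points, at 84423893 to 84424562, a site at percentile 88.1 in NPC and 28.6 in ESC. From 76 to 77 Mb the largest was 67.0 points, at 76324914 to 76325454, a site at 71.8 in NPC and 4.84 in ESC. The window with most sites elsewhere was chromosome 4 from 106 to 107 Mb, with 7 of 32 pairs (21.9%, 9.28 to 39.97). All of these windows were named because they held many sites.

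The 7 runs of 3 consecutive sites spanned 5503 to 63422 bp, and 3 of them lay on chromosome 15. The shortest was on chromosome 4 at 102153650 to 102159152, where the NPC percentiles were 73.5, 57.7 and 87.4 and the ESC percentiles 16.6, 6.07 and 39.5. The next, on chromosome 3 at 41367039 to 41404175, had no NPC-only peak within 100 kb of any of its 3 sites. On chromosome 16 at 34303939 to 34344510 the sites were at 50.3, 94.6 and 84.2 in NPC and at 2.00, 46.3 and 28.7 in ESC, with 3 or 4 NPC-only peaks and no ESC-only peak within 100 kb. Runs of equal length were ordered by their span, a choice made after their values were seen.

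NPC-only peaks were more frequent beside these sites. A peak that lies between pairs is counted for each of them, so the intervals over adjacent peaks are too narrow. Of the NPC peaks next to a site ranked higher in NPC, 838 of 3283 (25.5%, 24.0 to 27.1) were NPC-only, against 18.1% (17.0 to 19.2) next to sites ranked higher in ESC and 19.7% (19.4 to 20.0) next to other pairs. Of all autosomal NPC peaks 21.5% (21.1 to 21.8) were NPC-only. ESC-only peaks ran the other way, and made up 25.8% (25.5 to 26.2) of all autosomal ESC peaks. They were 19.8% (18.4 to 21.2) of the ESC peaks next to sites ranked higher in NPC, 31.1% (29.9 to 32.4) next to sites ranked higher in ESC and 23.6% (23.2 to 23.9) next to other pairs. At least 1 adjacent NPC peak was NPC-only at 43.8% (41.4 to 46.3) of the sites ranked higher in NPC and at 34.9% (34.4 to 35.4) of the other pairs, and both were at 7.19% (5.99 to 8.55) and 4.48% (4.27 to 4.71).

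The gap was also present without chromosome 15. Over the other autosomes 24.7% (23.2 to 26.3) of the NPC peaks next to the sites were NPC-only, against 19.3% (19.0 to 19.6) next to other pairs and 20.96% (20.6 to 21.3) of all NPC peaks there. ESC-only peaks were 20.6% (19.2 to 22.1) of the adjacent ESC peaks, against 24.0% (23.7 to 24.3). On chromosome 15 the NPC-only shares were 32.6% (27.6 to 37.8) next to the sites and 27.6% (26.1 to 29.2) next to other pairs, and these intervals overlapped. Of all NPC peaks of chromosome 15 30.3% (28.6 to 32.1) were NPC-only, which lies within the interval at the sites. Within single chromosomes the share was higher next to the sites than next to other pairs on 17 of 19 autosomes, all but 6 and 18. The ESC-only share was lower on 17 of 19, all but 7 and 19.

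Bands of score include chromosome 15, which held 10.5% of the sites. Of its NPC peaks 30.3% were NPC-only, against 20.96% on the other autosomes, so the bands match score but not chromosome. Peaks that lie between pairs are counted for each of them here too, so the intervals are too narrow. As computed, the gap at matched NPC score was clear of the intervals in the higher bands only. From the 40th to the 60th NPC percentile the share of NPC-only neighbours was 23.1% (20.1 to 26.3) for sites ranked higher in NPC and 19.6% (19.0 to 20.3) for other pairs, with intervals that overlapped slightly. From the 60th to the 80th the values were 26.3% (24.0 to 28.7) and 19.5% (18.9 to 20.1), and from the 80th up they were 26.2% (23.7 to 28.9) and 19.3% (18.8 to 19.9). At matched ESC score it was smaller in the lower bands: below the 20th ESC percentile the values were 25.6% (23.5 to 27.7) and 22.3% (21.2 to 23.3), with intervals that nearly touched. From the 20th to the 40th they were 24.7% (22.3 to 27.3) and 21.1% (20.4 to 21.9), and from the 40th to the 60th 27.3% (23.4 to 31.6) and 20.3% (19.6 to 20.9). Other pairs with low ESC scores thus also had more NPC-only neighbours than the 17.3% (16.8 to 17.9) of other pairs from the 80th ESC percentile up.

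By distance, and without chromosome 15, 25.7% (22.4 to 29.3) of the adjacent NPC peaks within 5 kb of a site were NPC-only, against 17.1% (16.4 to 17.7) next to other pairs. At 20 to 50 kb the shares were 26.3% (23.1 to 29.7) and 19.6% (19.0 to 20.3), and at over 100 kb 29.97% (24.8 to 35.5) and 22.8% (21.8 to 23.8). Only at 50 to 100 kb did the interval at the sites (19.1 to 28.0) include the 21.6% of other pairs. Peaks between pairs are again counted for each of them, so the intervals by distance are too narrow. The NPC-only neighbours were mostly weak peaks. Of those next to sites ranked higher in NPC 12.5% (10.4 to 14.96) scored above the NPC median, against 11.2% (10.7 to 11.8) of those next to other pairs.

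**Figure D3:**
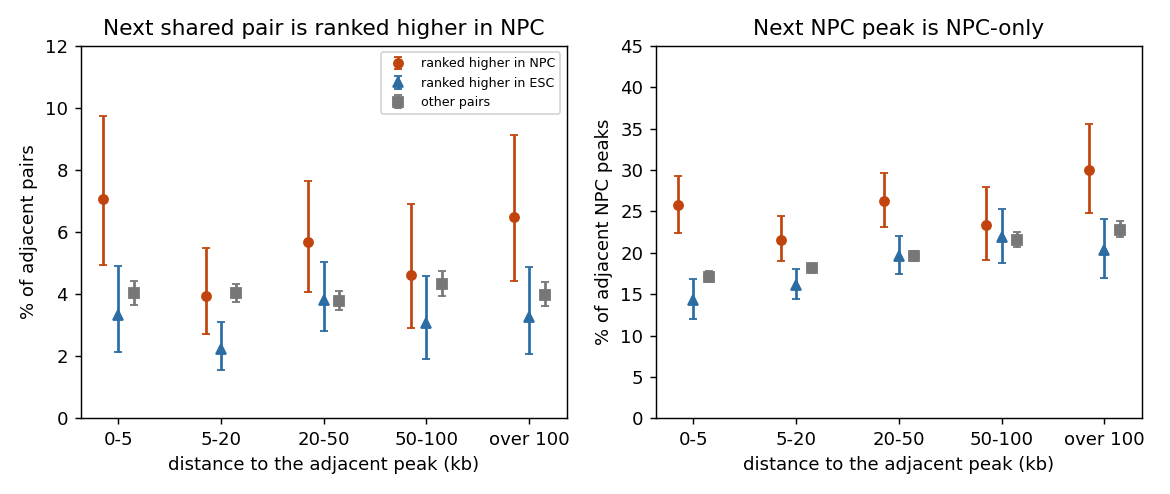
Neighbours by distance in kb, without chromosome 15: the percentage of adjacent 1-to-1 pairs that were ranked higher in NPC (left) and of adjacent NPC peaks that were NPC-only (right), with 95% intervals, for sites ranked higher in NPC, sites ranked higher in ESC and other pairs. Within 5 kb the NPC-only share was 25.7% beside sites ranked higher in NPC and 17.1% beside other pairs.

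In absolute distance the nearest NPC-only peak was a median of 40.8 kb (36.99 to 43.8) from a site ranked higher in NPC and 56.1 kb (55.2 to 57.2) from other pairs. The nearest ESC-only peak was 55.6 kb (51.4 to 60.2) and 43.4 kb (42.5 to 44.2) away. Within 10 kb an NPC-only peak lay beside 20.5% (18.6 to 22.6) of the sites and 13.8% (13.4 to 14.2) of the other pairs, and within 50 kb beside 56.4% (54.0 to 58.8) and 46.5% (46.0 to 47.0). Without chromosome 15 the 50 kb shares were 54.0% (51.4 to 56.6) and 45.5% (44.9 to 46.0).

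The sites were on every autosome, and chromosome 15 stood apart. It held 172 of the 1642 sites (10.5%), more than any other chromosome, from 1834 pairs. Its share of pairs ranked higher in NPC was 9.38% (8.08 to 10.8), against 3.999% on the other 18 autosomes together and 2.96% to 4.70% on each of them. Its share ranked higher in ESC was 2.18% (1.56 to 2.96), against 6.62% and 5.28% to 9.62%. Sites ranked higher in NPC outnumbered those ranked higher in ESC by 4.3 to 1 there, while the ratio was 0.403 to 0.786 on each other autosome. Chromosome 4 came next at 4.70% (3.92 to 5.60) and chromosome 10 last at 2.96% (2.26 to 3.81).

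**Figure D4:**
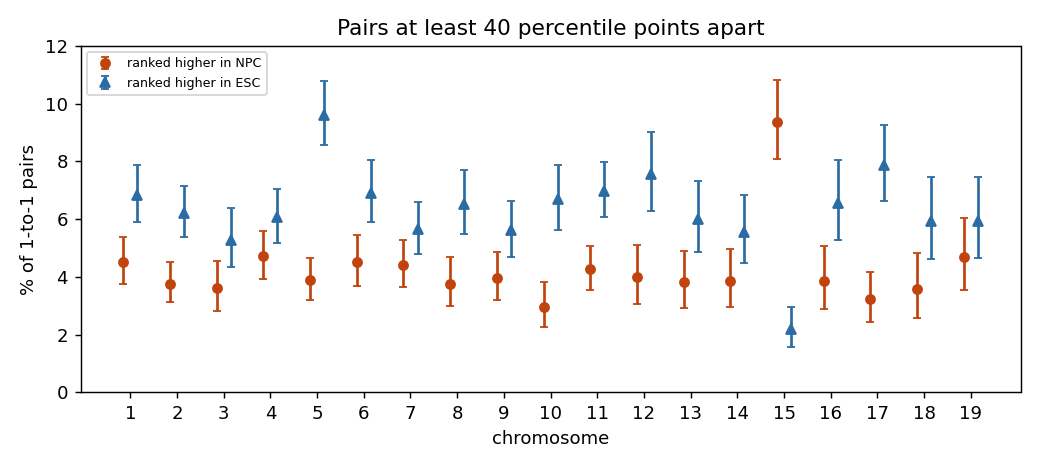
Percentage of the 1-to-1 pairs of each autosome that were at least 40 percentile points higher in NPC or in ESC, with 95% intervals. Chromosome 15 had 9.38% ranked higher in NPC and 2.18% ranked higher in ESC, and on each other autosome the ESC share was the higher one.

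The excess on chromosome 15 went with a shift of all its pairs. Their median difference was 8.36 points (7.38 to 9.12) toward NPC, against -4.65 to 0.36 points on the other autosomes. Pairs of that chromosome that passed neither limit still had a median of 6.71 points. When percentiles were taken within each chromosome of each list, 104 pairs of chromosome 15 passed the limit, or 5.67% (4.66 to 6.83) of its pairs, and 4.10% elsewhere. Those percentiles also rank peaks outside the pairs. On chromosome 15 30.3% of the NPC peaks were NPC-only and 15.9% of the ESC peaks ESC-only. Ranking within chromosomes therefore need not remove the whole shift of its pairs. Along the chromosome 10 of 11 segments of 10 Mb had a share above that of the other 18 autosomes. The highest was 16.7% (10.5 to 24.6) from 50 to 60 Mb and the lowest 2.78% (0.34 to 9.68) from 40 to 50 Mb, which was also the only segment with a median difference below 0, at -2.29 points. What shifted the pairs of chromosome 15 was not tested.

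On the other autosomes 170 segments of 10 Mb held at least 100 pairs, and 36 of them had more sites ranked higher in NPC than in ESC. Chromosome 4 from 100 to 110 Mb was the only one above the 9.38% of chromosome 15, with 22 of 195 pairs (11.3%, 7.21 to 16.6), 3 pairs ranked higher in ESC and a median difference of 10.4 points. The following segment of chromosome 4, from 110 to 120 Mb, had 19 of 219 (8.68%, 5.30 to 13.2), and chromosome 6 from 50 to 60 Mb had 17 of 185 (9.19%, 5.44 to 14.3). At the other end, chromosome 12 from 70 to 80 Mb had 1 of 138 pairs ranked higher in NPC and 30 ranked higher in ESC. Chromosome 5 from 110 to 130 Mb had 17 and 89 of its 689 pairs in these classes, and distal chromosome 11 from 110 to 120 Mb had 18 and 23 of 329.

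The median difference at the chromosome 15 sites was 48.7 points (46.7 to 51.4), against 48.3 (48.0 to 48.8) for the 1470 sites elsewhere. The 40-point limit holds both medians near it, so their closeness says little. The highest 10% of differences began at 68.0 points on chromosome 15 and at 63.2 elsewhere. Percentiles of the chromosome 15 sites were higher in both lists, with medians of 78.2 (74.0 to 82.8) in NPC and 23.4 (20.2 to 27.2) in ESC. Elsewhere the medians were 72.4 (71.2 to 73.5) in NPC and 19.5 (18.4 to 20.5) in ESC. The NPC peaks were 547 bp wide (511 to 559), against 512 bp (502 to 517), and the ESC peaks 469 bp (448 to 493), against 464 bp (458 to 469). Adjacent pairs were themselves ranked higher in NPC in 46 of 344 cases on chromosome 15 (13.4%, 9.96 to 17.4), against 9.07% (8.10 to 10.1) next to its other pairs. Within 5 kb it was 16 of 72 cases (22.2%, 13.3 to 33.6), against 9.30% (7.10 to 11.9). Here too each link between such sites is counted from both of its ends, so the intervals at the sites are too narrow.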

How the data were processed

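The data were 2 lists of CTCF peaks, 1 per cell type. MACS made the peaks of each library, per the file headers; the build is mm9, per the submitters' processing notes. Each peak has a score, which the authors deposited without defining it in the file headers. The sources used here do not give the MACS version, threshold, aligner, control or depth, and the lists hold no read counts. Scores were used only as ranks within a list, with ties at their average rank. Percentiles were taken over all peaks of a list, chromosomes X and Y included.

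Pairs were 1-to-1 when neither peak overlapped a second peak of the other list. Adjacent means the next pair, or the next peak of the list, on each side, by centre. A pair or peak adjacent to several pairs is counted for each of them, so intervals over adjacent pairs or peaks are too narrow. Shares carry exact Clopper-Pearson 95% intervals and medians carry order-statistic 95% intervals. With 1 library per cell type no test was run. Sites planted in a simulated list were recovered, and the number of overlaps between the real lists was the same as with bedtools. Named sites were the 10 with the largest difference, the 5 on each side of the limit, the 3 with the highest NPC score, the 3 on chromosome 15 with the largest difference, the 3 windows of 1 Mb with most sites and the 3 longest runs. The sites and measures were chosen with earlier results of these data known. Alternatives were limits of 30 and 50 points, 50% reciprocal overlap, lists without their lowest 10% of scores, percentiles among pairs or within chromosomes, exclusion of chromosome 15 and windows of 500 kb. Sequence and genes at the sites were not used here, so the planned motif and gene comparisons were not made. Python 3.11.15, numpy 2.4.6, pandas 2.3.3, scipy 1.17.1 and matplotlib 3.10.9 were used.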

Additional observations from a re-analysis of the deposited data

How the results depend on the processing

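No paired analysis was possible because each cell type had 1 library. The 1642 sites became 3321 with a limit of 30 points and 696 with 50, and stayed within 1.5 times under the other alternatives. Of the original sites 72.5% were among the 1658 found without the lowest 10% of scores. That setting itself drops each site with an ESC peak in the lowest 10% of the list, which held for 27.5% of the sites. It also changes the percentiles of the peaks that remain. The 2472 pairs ranked higher in ESC became 4775 with 30 points, 1106 with 50 and 1404 with 50% reciprocal overlap, where the sites ranked higher in NPC (1615) were the more numerous. That overlap excludes pairs by width, and the pairs ranked higher in ESC had a median NPC to ESC width ratio of 0.519. The width ratio of 1.11 was 1.04 with 30 points, 1.21 with 50, 1.05 without the lowest 10% of scores and 1.05 with percentiles among pairs, against 0.770, 0.764, 0.769 and 0.763 at other pairs. The share of adjacent pairs ranked higher in NPC (6.21%) was 11.7% with 30 points, 2.87% with 50, 8.36% with percentiles among pairs, 5.40% with percentiles within chromosomes and 5.38% without chromosome 15. Beside other pairs it was 8.58%, 1.80%, 5.69%, 4.20% and 4.01% in the same order. The share of NPC-only peaks among adjacent NPC peaks (25.5%) was 23.9% with 30 points and 29.7% with 50% reciprocal overlap, against 19.7% and 25.9% beside other pairs. With 50% reciprocal overlap, NPC peaks with a smaller ESC overlap also count as NPC-only. The 29.7% and 25.9% are thus not the same measure as the 25.5%. The share on chromosome 15 (9.38%) was 16.8% with 30 points, 4.36% with 50, 10.9% without the lowest 10% of scores, 13.5% with percentiles among pairs and 5.67% with percentiles within chromosomes, against 8.19%, 1.68%, 4.42%, 5.35% and 4.10% on the other autosomes. Windows with at least 4 sites, a count chosen after seeing the data, numbered 66 at 1 Mb and 32 at 500 kb, which are smaller windows by construction. The depth of the libraries is unknown, so weak ESC scores near the lowest in the list, 100.02, have an unknown error.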

Other observations

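Overlapping peaks outside the autosomal 1-to-1 pairs also held large rank differences. On chromosome X 29 of 1004 pairs (2.89%, 95% interval 1.94 to 4.12) were at least 40 points higher in NPC and 32 (3.19%, 2.19 to 4.47) were at least 40 points higher in ESC. The median percentiles there were 41.7 in NPC and 43.8 in ESC.

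Peaks that spanned several peaks of the other list were strongly one-sided. Of the 72 autosomal overlaps in which an NPC peak touched 2 or more ESC peaks, 22 (30.6%, 20.2 to 42.5) were at least 40 points higher in NPC and 1 was at least 40 points higher in ESC. The NPC peaks of these overlaps had a median width of 693 bp and the ESC peaks 562 bp, at median percentiles of 86.6 and 54.3. Of the 811 overlaps in which an ESC peak touched 2 or more NPC peaks, 3 (0.37%, 0.0764 to 1.08) were at least 40 points higher in NPC and 272 (33.5%, 30.3 to 36.9) were at least 40 points higher in ESC. The ESC peaks of the 811 overlaps had a median width of 1217 bp and the NPC peaks 458 bp, at median percentiles of 94.7 and 61.8. A peak that touches several others is chosen in part by its width, and width followed score. The one-sidedness is therefore not separate from that choice. Overlaps of one peak share that peak and are not independent.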
